A study of Mus musculus with 16 samples.

Results

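Cell division genes were followed as a group of 40 genes, named by symbol and found as 40 of the 40324 gene symbols of the count table. The choice was made by name, without use of a measured value but with earlier results of these data known. It was split by role into 16 genes of the G1 phase and DNA replication and 24 genes of G2 and mitosis. The study measured liver gene expression in littermate db/db mice, a strain with a mutated leptin receptor that develops obesity and diabetes. Of these, 8 mice received adeno-associated virus serotype 8 (AAV8) encoding GFP, a fluorescent protein, and are labelled control. The other 8 received AAV8 encoding arcA and are labelled arcA overexpression. Injection took place at about 5 weeks, and liver RNA was taken 5 weeks later, at an age of 10 weeks. Both groups thus carried db/db and the virus, and uninjected mice, lean mice and earlier times were not analysed here. The sources used here give neither the promoter of the transgene nor the sex of the mice nor the product of arcA, and transgene levels were not analysed here.

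A dividing cell passes from G1, where cyclin D1 and cyclin E with their kinases release the E2F transcription factors, into S phase, where the MCM helicase, the sliding clamp PCNA and the enzymes that make deoxynucleotides copy the DNA. In G2 and mitosis, CDK1 with cyclins A and B, the Aurora and Polo kinases, kinesin motors and the spindle checkpoint separate the chromosomes. Adult hepatocytes rarely divide but can enter the cycle again after loss of tissue, and immune and other cells of the liver can divide as well. The RNA came from whole liver, so fewer dividing cells and less RNA per dividing cell cannot be told apart.

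Ccnd1, which encodes cyclin D1, was lower in all 8 arcA livers than in any GFP liver, and was the only member called with all 16 livers. The other 38 members tested were not called, but the mitosis genes had a pattern that this count does not show. They were low in 7 arcA livers and very high in the liver labelled arcA 8, and GFP 7 was the highest GFP liver. Without arcA 8, a liver singled out after its values were seen, 18 of 22 mitosis members tested were lower in arcA livers, against 7.18% of all genes. By the main tool, edgeR, the median log2 fold change of the mitosis members tested was -1.39 in that fit, -0.35 with all livers and -0.011 without GFP 7. With all livers it was -1.09 by the tool DESeq2, which replaced extreme counts, and -1.07 by limma voom with quality weights. Genes of DNA replication such as the Mcm genes and Pcna were not called with or without those livers.

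Levels are given as CPM (counts scaled to the library size), and fold changes as arcA over GFP on the log2 scale with a standard error (SE). A gene is called lower or higher when its p-value from the quasi-likelihood test of edgeR, adjusted by Benjamini-Hochberg over all genes tested, is below 0.05. Libraries held 28912563 to 53520828 counts in the GFP group and 37325610 to 45874797 in the arcA group. GFP 7 was the deepest library, and its CPM values are scaled for that. The ribosomal-RNA-overlapping Gm42418 took 2.29% to 19.4% of counts, with the highest shares in GFP 2, 3 and 5. The 16 hepatocyte markers summed to between 87970 and 120100 CPM in every liver, so the defining genes of liver were abundant in all 16. The labels name a separate sample for each liver but do not identify animals, so p-values measure the spread between these samples.

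With all livers, 39 of the 40 members passed the filter on low counts. Bub1 did not, with 103 counts in all GFP livers together and 139 in all arcA livers. Of the 39, 1 was lower, against 6.57% of all 14476 genes tested, and 0 were higher, against 4.26%. By edgeR, no other member had an unadjusted p below 0.05. Other tools called more members lower: 17 with DESeq2, where 8.67% of all genes were lower, and 5 with limma voom, where 7.76% were. The edgeR median log2 fold change was -0.24 over the 39 members and 0.0091 over all genes tested. Over the members it was -0.54 with DESeq2 and -0.70 with limma voom.

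**Figure D1:**
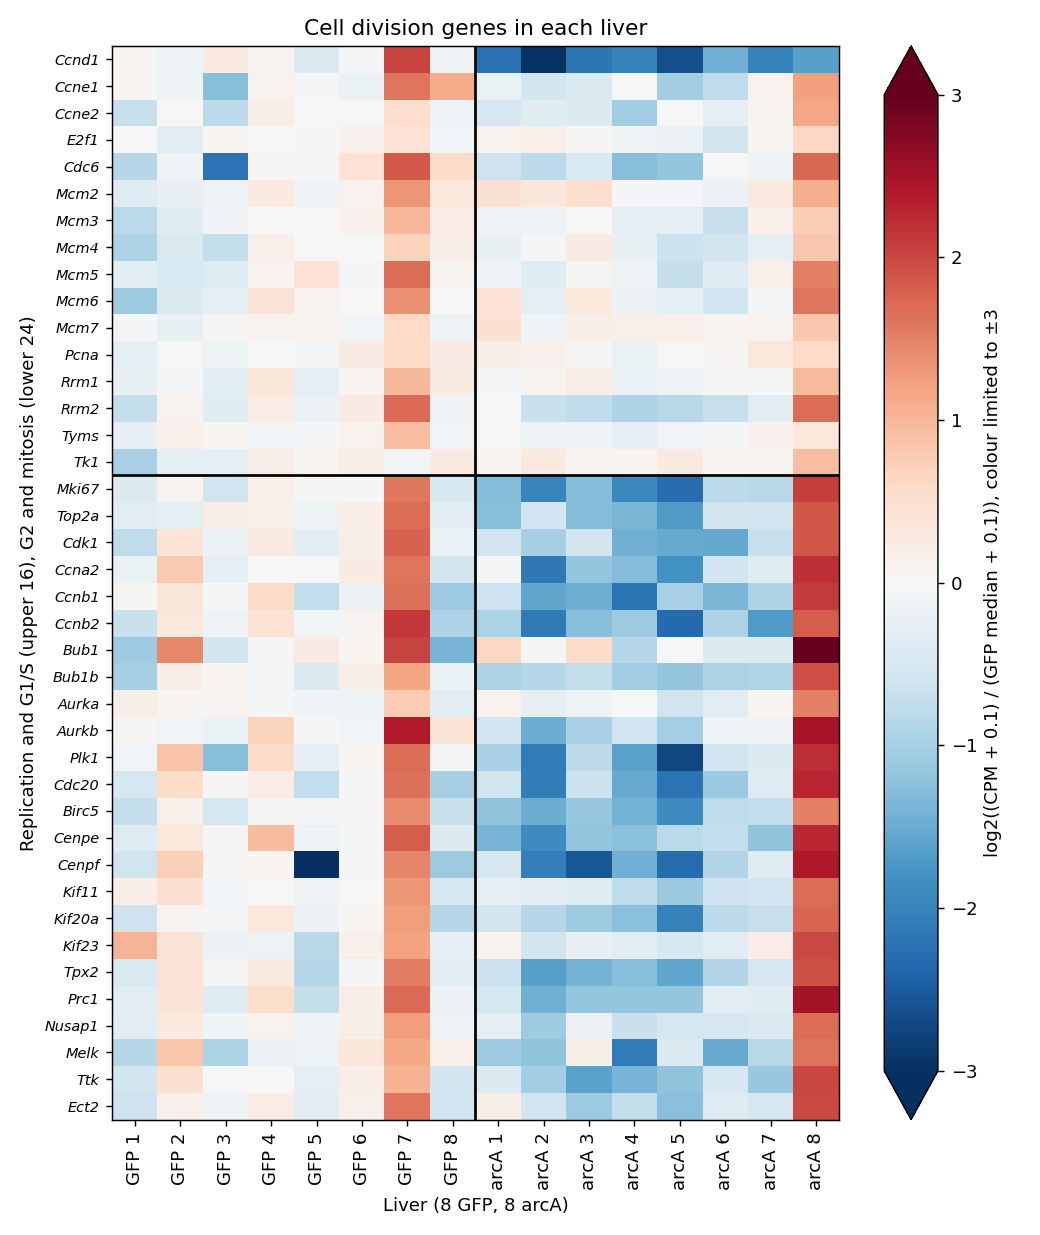
Heat map of the 40 members (rows, replication genes above mitosis genes) in the 16 livers (columns), coloured by log2 of the level in that liver over the median of the 8 GFP livers, with 0.1 CPM added to both. The columns of GFP 7 and arcA 8 stand out as high in most rows, and the other 7 arcA livers lie below the GFP median in most mitosis rows.

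Promoter sequences are shown because genes of replication and of mitosis are known to carry different promoter elements. RefSeq promoters of GRCm38.p6, each running from 250 bases before to 50 bases after the annotated start, were matched by symbol for 33 of the 40 members. Ccnd1, Ccne2, Mcm4, Ccna2, Aurkb, Kif20a and Tpx2 had no entry. The element known as CHR was searched as TTTGAA, the CCAAT box as CCAAT, and the E2F site as TTTGGCGC, TTTCCCGC, TTTGCCGC or TTTCGCGC, each on both strands. As background, CHR is bound by the MuvB complexes that time mitotic genes, CCAAT by the factor NF-Y, and the E2F site by E2F factors with their partners. CHR letters were present for 14 of 20 mitosis members (70%) and 1 of 13 replication members (7.69%, Mcm2), and for 20.2% of all 27025 genes with a promoter. CCAAT letters were present for 17 of 20 (85%) and 8 of 13 (61.5%), against 41.1% of all genes. E2F letters were present for 1 of 20 (5%, Cdk1) and 5 of 13 (38.5%, Cdc6, Mcm3, Mcm5, Mcm6 and Mcm7), against 2.6% of all genes. A match of letters is a description of the sequence and was not tied to any binding measured here.

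The first 5 sequences are the stretches directly before the RefSeq start of mitosis genes, each read 5′ to 3′ along the gene's strand, with CHR, CCAAT and E2F letters on either strand in capitals. The positions are chr7:135716380-135716579 (minus strand) for Mki67, chr10:69352913-69353062 (minus) for Cdk1, chr11:99024190-99024299 (minus) for Top2a, chr9:70421555-70421654 (minus) for Ccnb2 and chr4:118437344-118437443 (minus) for Cdc20, all on GRCm38.p6.
Mki67: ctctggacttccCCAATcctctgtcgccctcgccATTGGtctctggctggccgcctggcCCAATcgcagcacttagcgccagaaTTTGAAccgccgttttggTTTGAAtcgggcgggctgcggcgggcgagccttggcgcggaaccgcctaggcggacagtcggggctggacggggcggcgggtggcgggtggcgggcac
Cdk1: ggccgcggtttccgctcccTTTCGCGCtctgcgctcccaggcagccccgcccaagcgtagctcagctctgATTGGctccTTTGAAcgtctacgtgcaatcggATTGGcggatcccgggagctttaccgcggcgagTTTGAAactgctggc
Top2a: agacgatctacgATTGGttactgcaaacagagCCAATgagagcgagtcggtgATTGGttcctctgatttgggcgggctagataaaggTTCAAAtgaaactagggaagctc
Ccnb2: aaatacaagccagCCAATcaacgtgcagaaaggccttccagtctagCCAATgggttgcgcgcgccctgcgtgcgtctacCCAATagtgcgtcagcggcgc
Cdc20: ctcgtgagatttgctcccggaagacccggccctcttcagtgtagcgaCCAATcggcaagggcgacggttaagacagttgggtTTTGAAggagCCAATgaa
In Mki67, 3 CCAAT matches stand before 2 CHR matches, and Cdk1 has an E2F match, 2 CCAAT and 2 CHR matches in the stretch shown. The Ccnb2 stretch holds 3 CCAAT matches, and its CHR letters lie 167 bases before the start and 5 bases after it, outside the stretch.

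Mcm6 and Mcm5 are shown as replication members with E2F letters and no CHR letters. They lie at chr1:128359706-128359855 (minus strand) and chr8:75109329-75109508 (plus strand) on GRCm38.p6, and the same letters are in capitals. In each, an E2F match on one strand overlaps a match on the other, which gives the longer run of capitals.
Mcm6: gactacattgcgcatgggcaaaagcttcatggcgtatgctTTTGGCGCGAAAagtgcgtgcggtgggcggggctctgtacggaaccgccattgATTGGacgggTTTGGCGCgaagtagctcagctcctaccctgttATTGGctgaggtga
Mcm5: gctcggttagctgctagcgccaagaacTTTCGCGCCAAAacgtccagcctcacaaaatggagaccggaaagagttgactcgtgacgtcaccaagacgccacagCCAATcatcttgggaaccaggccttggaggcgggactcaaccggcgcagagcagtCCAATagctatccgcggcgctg

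Ccnd1 is the G1 cyclin that links growth signals to the cycle (chromosome 7, 144929931 to 144939925, minus strand, GRCm38 by GENCODE M21). GFP livers had a lowest level of 19.5, a median of 26.1 and a highest level of 106 CPM. The arcA livers had 3.24, 6.01 and 9.46 CPM. Every arcA liver lay below every GFP liver, a separation in the lower direction that 1.2% of all tested genes had. The group means were 35.6 ± 28.8 CPM in GFP and 6.11 ± 2.04 CPM in arcA livers (SD, n = 8 each). Ccnd1 fell by 2.54 on the log2 scale (SE 0.377, 95% interval -3.35 to -1.74, edgeR adjusted p = 0.00076). GFP 7 held the level of 106 CPM, and the other 7 GFP livers had 19.5 to 32.1 CPM. Without GFP 7 and arcA 8 the log2 fold change was -2.14 (adjusted p = 1.9e-05), and without arcA 8 alone it was -2.62 (adjusted p = 0.0015). In contrast to the mitosis genes, arcA 8 did not hold the highest arcA level of Ccnd1, with 8.30 CPM against 9.46 CPM in arcA 6. On the opposite strand, LTO1 overlaps 23.4% of the exon bases of Ccnd1. LTO1 was at 10.1 to 12.1 CPM in GFP and 7.77 to 11.1 CPM in arcA livers, with a log2 fold change of -0.071 (adjusted p = 0.591).

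The E cyclins, which act after cyclin D1 at entry into S phase, were not called. Ccne1 had a lowest, median and highest level of 0.399, 1.12 and 3.59 CPM in GFP and 0.489, 0.883 and 2.77 CPM in arcA livers, and a log2 fold change of -0.47 (SE 0.405, edgeR adjusted p = 0.52). Ccne2 had 0.879, 1.59 and 2.34 CPM in GFP and 0.724, 1.25 and 3.70 CPM in arcA livers, with a log2 fold change of 0.023 (SE 0.276). For both genes the ranges overlapped widely and arcA 8 was the highest arcA liver. E2f1, which encodes the factor that switches on replication genes, had 6.20, 7.75 and 10.5 CPM in GFP and 5.27, 8.01 and 11.9 CPM in arcA livers. Its log2 fold change was 0.012 (SE 0.129, 95% interval -0.26 to 0.28), and its sign flipped with scaling on library size alone (-0.019), upper-quartile scaling (-0.0071) and scaling on hepatocyte markers (-0.21). The sign of Ccne2 flipped with the same 3 scalings (-0.016, -0.00042 and -0.22).

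Genes of the replication machinery were not called, and their values lay on both sides of 0. Pcna encodes the sliding clamp of the DNA polymerases (chromosome 2, 132249162 to 132253314, minus strand) and had 16, 19.7 and 29.4 CPM in GFP and 17.1, 20.8 and 29.9 CPM in arcA livers. Its log2 fold change was 0.057 (SE 0.121, 95% interval -0.20 to 0.31, edgeR adjusted p = 0.83). Mcm2, a helicase subunit, had 5.09, 6.67 and 16.7 CPM in GFP and 5.91, 8.29 and 14.3 CPM in arcA livers, a log2 fold change of 0.10 (SE 0.245). Mcm6, another subunit of the same ring, had 3.68, 7.78 and 20.3 CPM in GFP and 5.12, 7.27 and 23.7 CPM in arcA livers, a log2 fold change of 0.11 (SE 0.367, 95% interval -0.67 to 0.90). The ranges of Pcna, Mcm2 and Mcm6 overlapped, with GFP 7 and arcA 8 at the top of each. These small positive values turned to -0.17, -0.15 and -0.15 with scaling on hepatocyte markers, which moved the median of all genes to -0.20. The other helicase subunits Mcm3, Mcm4, Mcm5 and Mcm7 had log2 fold changes of -0.15 to 0.18, and Cdc6, which loads the helicase, had -0.45 (SE 0.619) from 184 counts in GFP and 127 in arcA livers.

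Enzymes of deoxynucleotide supply were not called by edgeR with all livers. Rrm2, the regulated subunit of ribonucleotide reductase, had 2.42, 4.02 and 13.3 CPM in GFP and 2.08, 2.47 and 13.0 CPM in arcA livers, a log2 fold change of -0.34 (SE 0.45, edgeR adjusted p = 0.706). Without arcA 8 it was -0.92 (adjusted p = 0.0775) and without GFP 7 and arcA 8 it was -0.53 (adjusted p = 0.0618). DESeq2 called Rrm2 lower in a fit where it had replaced the count of arcA 8 as extreme. Its partner subunit Rrm1 had a log2 fold change of -0.025 (SE 0.200). Tyms, which makes thymidylate, had 5.47, 6.46 and 12.3 CPM in GFP and 5.40, 6.19 and 8.00 CPM in arcA livers, a log2 fold change of -0.16 (SE 0.139). Tk1, the thymidine kinase of S phase, had 8.38, 16.6 and 20.1 CPM in GFP and 17.2, 17.6 and 31.4 CPM in arcA livers. All 8 arcA livers lay above the GFP median of Tk1, but its log2 fold change of 0.33 (SE 0.167, adjusted p = 0.236) did not pass. Over the 16 replication members the median log2 fold change was -0.014 with all livers, -0.22 without arcA 8 and -0.052 without GFP 7 and arcA 8, and Ccnd1 was the 1 member called in each of these fits.

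**Figure D2:**
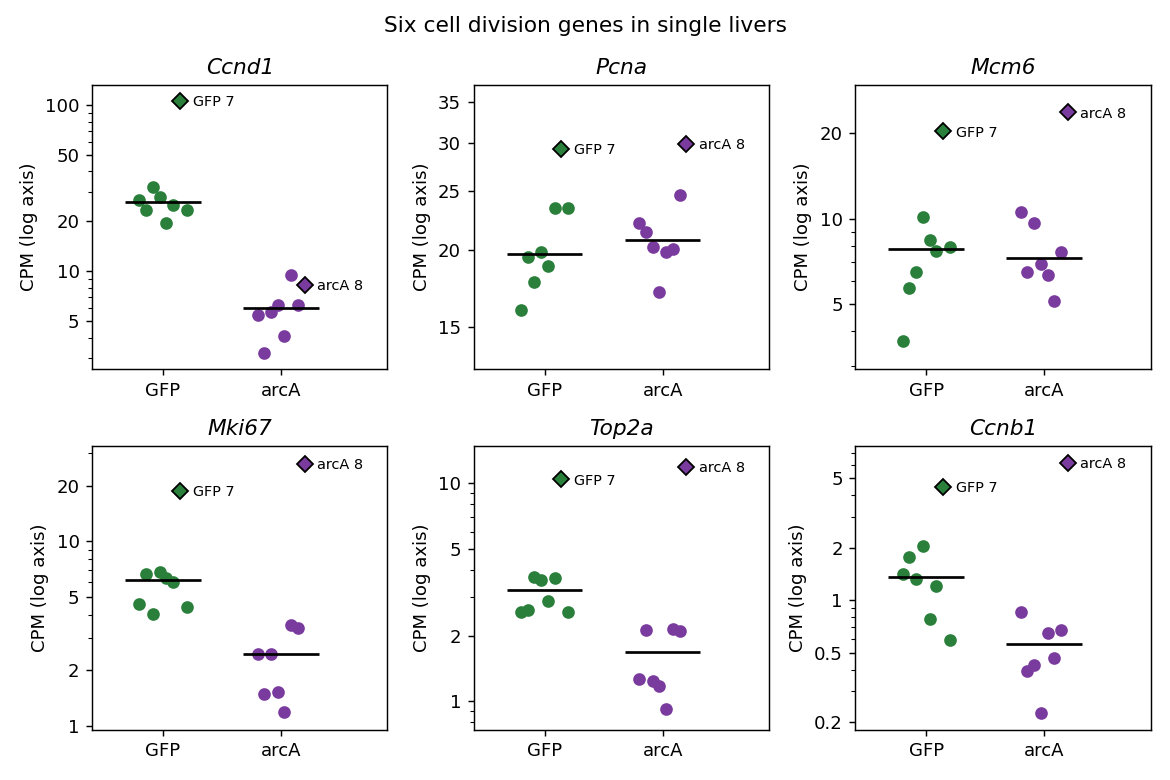
Levels of Ccnd1, Pcna, Mcm6, Mki67, Top2a and Ccnb1 in single livers, in CPM on log axes, with GFP livers in green, arcA livers in purple, the group median as a line and GFP 7 and arcA 8 as diamonds. Ccnd1 separates the groups in every liver, Pcna and Mcm6 overlap, and for Mki67, Top2a and Ccnb1 the 7 arcA livers other than arcA 8 lie low.

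Mki67, the gene of the proliferation antigen Ki-67 that coats mitotic chromosomes (chromosome 7, 135689784 to 135716361, minus strand), had 4.03, 6.18 and 18.8 CPM as its lowest, median and highest GFP level. Its arcA levels were 1.20, 2.45 and 26.4 CPM. The highest values came from GFP 7 and arcA 8, and the other 7 arcA livers, at 1.20 to 3.52 CPM, lay below every GFP liver. With all livers the log2 fold change was -0.45 (SE 0.642, 95% interval -1.82 to 0.93, edgeR adjusted p = 0.737); the interval holds values of either sign. Top2a, the topoisomerase that untangles chromosomes, had 2.57, 3.23 and 10.4 CPM in GFP and 0.923, 1.68 and 11.9 CPM in arcA livers. Birc5, which encodes survivin of the chromosomal passenger complex, had 1.41, 2.40 and 6.61 CPM in GFP and 0.570, 1.01 and 6.98 CPM in arcA livers. Their log2 fold changes with all livers were -0.49 (SE 0.54) and -0.59 (SE 0.514). For Top2a, Birc5 and Cenpe, a centromere kinesin, the arcA livers other than arcA 8 again lay below every GFP liver. This was so for 4 of 24 mitosis members in all, and for 1.57% of all genes tested without arcA 8. These shares are not alike, because arcA 8 was the highest arcA liver for 24 of 24 mitosis members but for 18.7% of all genes. With all livers, 0 of 24 mitosis members separated.

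The kinase and cyclins that drive entry into mitosis had the same shape. Cdk1 had 1.57, 2.77 and 9.68 CPM in GFP and 0.887, 1.5 and 10.3 CPM in arcA livers. Ccna2, cyclin A2, had 1.05, 1.59 and 5.02 CPM in GFP and 0.282, 0.837 and 7.55 CPM in arcA livers. Ccnb1, cyclin B1, had 0.590, 1.37 and 4.47 CPM in GFP and 0.226, 0.560 and 6.16 CPM in arcA livers. In each of the 3 the highest arcA level, that of arcA 8, exceeded the highest GFP level, that of GFP 7, while the arcA median lay below the GFP median. Their log2 fold changes with all livers were -0.53 (SE 0.558), -0.34 (SE 0.612) and -0.47 (SE 0.652). Ccnb2, cyclin B2, had the lowest value among the mitosis members, -0.87 (SE 0.663, adjusted p = 0.463), and was the only mitosis member in which GFP 7 (9.19 CPM) exceeded arcA 8 (7.44 CPM).

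Kinases and checkpoint genes of the spindle were not called with all livers. Plk1, Polo-like kinase, had 0.479, 1.30 and 4.34 CPM in GFP and 0.109, 0.659 and 6.38 CPM in arcA livers. Aurkb, the kinase of the passenger complex, had 0.559, 0.656 and 3.85 CPM in GFP and 0.169, 0.406 and 4.09 CPM in arcA livers. Cdc20, which activates the ligase that ends mitosis, had 1.66, 3.42 and 11.0 CPM in GFP and 0.652, 1.83 and 17.0 CPM in arcA livers. The 3 genes had log2 fold changes of -0.48, -0.41 and -0.24 with all livers, and their ranges overlapped even without arcA 8. The checkpoint kinase gene Bub1 had 0, 0.163 and 0.968 CPM in GFP and 0.0452, 0.166 and 2.01 CPM in arcA livers, too few counts for a comparison. Its partner Bub1b had a log2 fold change of -0.23 (SE 0.520). The remaining mitosis members, among them the kinesins Kif11, Kif20a and Kif23, the spindle proteins Tpx2, Prc1 and Nusap1 and the kinases Aurka, Melk and Ttk, lay between -0.54 and 0.12.

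Of the 23 mitosis members tested with all livers, 22 had a log2 fold change below 0, at a median of -0.35 and a range of -0.87 to 0.12, but edgeR called 0 of them and 0 had an unadjusted p below 0.05. Limma voom, with quality weights, called 4 of them lower, against 7.76% of all genes. Its median was -1.07, and 19 had an unadjusted p below 0.05. DESeq2 called 15 lower, against 8.67% of all genes, at a median of -1.09, and 16 had an unadjusted p below 0.05. DESeq2 replaces counts that it finds extreme. It replaced the count of arcA 8 in 16 of these 23 genes, against 61 genes with a replacement among all 14476, and all 15 calls were among those 16. Leaving out single livers was planned for each of the 16, and arcA 8 was singled out after its values were seen. In the fit without arcA 8, 18 of 22 mitosis members tested were lower, against 7.18% of 14563 genes, at a median of -1.39. Melk and Bub1 did not pass the filter in that fit. The members not called lower were Aurka at -0.25 (adjusted p = 0.342), Kif23 at -0.66 (adjusted p = 0.207), Ect2 at -0.86 (adjusted p = 0.109) and Cenpf at -1.48 (adjusted p = 0.112).

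Without arcA 8, Mki67 fell by 1.66 on the log2 scale (SE 0.361, edgeR adjusted p = 0.0092). Cenpe fell by 1.91 (SE 0.371, adjusted p = 0.0030), the smallest p among the mitosis members. Ccnb2 fell by 2.0, Ccnb1 by 1.71, Plk1 by 1.71, Aurkb by 1.54, Cdk1 by 1.42, Birc5 by 1.41, Cdc20 by 1.39 and both Top2a and Ccna2 by 1.37. The fit without GFP 7 and arcA 8, the liver with the highest mitosis levels of each group, was added after these values were seen. It called 16 of 22 mitosis members lower, against 5.65% of 14428 genes, at a median of -1.0, and all 16 were among the 18. Mki67 fell by 1.29 (SE 0.225, adjusted p = 0.0023) and Cenpe fell by 1.52 (adjusted p = 0.0026) there. Ccna2 at -1.04 (adjusted p = 0.051) and Cdc20 at -1.0 (adjusted p = 0.0669) were no longer called. Without GFP 7 alone, edgeR called Ccnd1 and no other member, and Aurkb, Cdc20 and Ccna2 stood at 0.24, 0.17 and 0.0057.

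**Figure D3:**
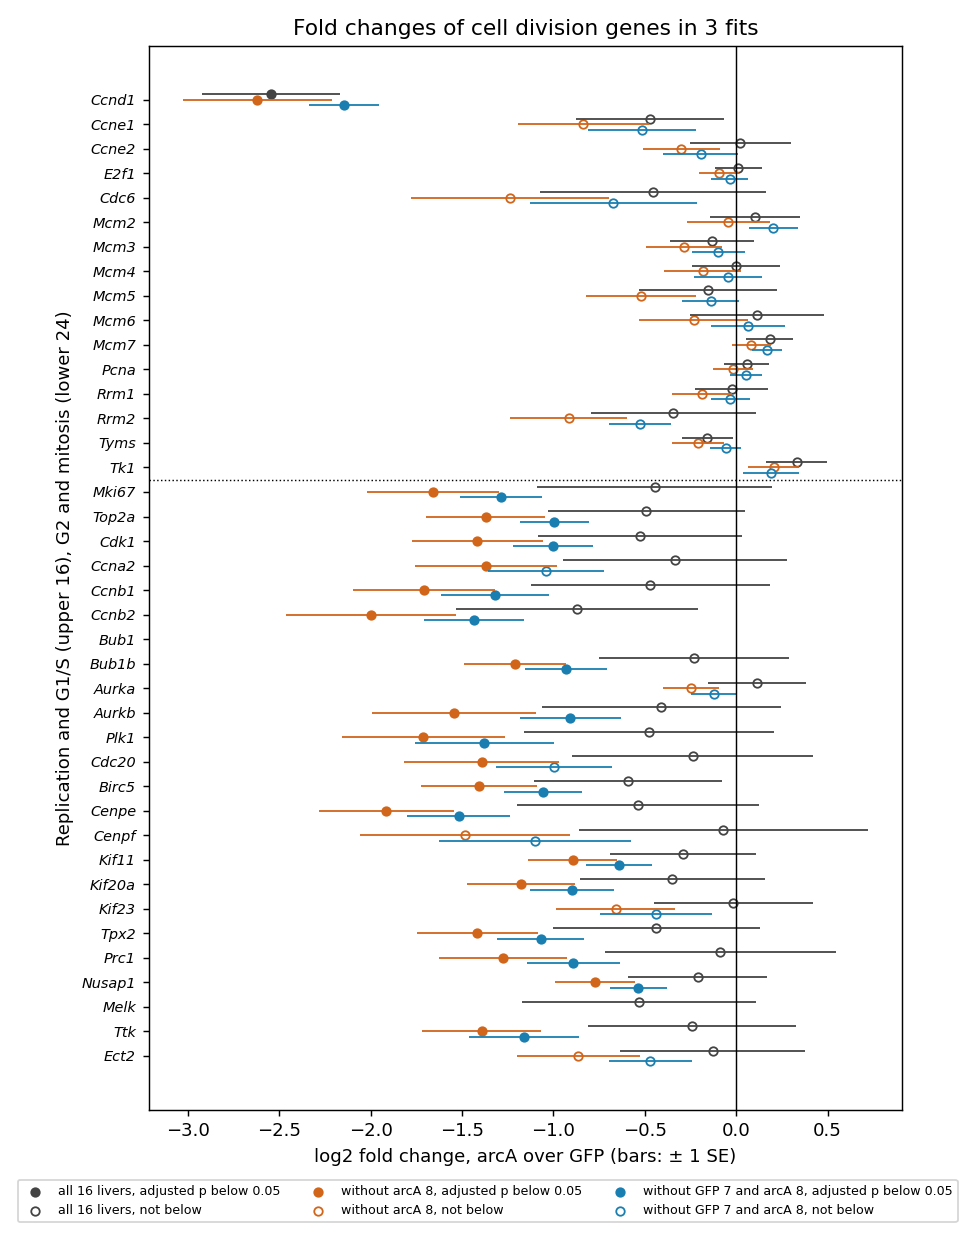
Log2 fold change of each member, arcA over GFP, with bars of 1 SE, from the fit with all 16 livers, without arcA 8, and without GFP 7 and arcA 8, with filled points for an adjusted p below 0.05. Ccnd1 is filled in all 3 fits, and the other replication genes are open. Without arcA 8, 14 of the 16 replication genes lie below 0, at a median of -0.22. Most mitosis genes are filled only where arcA 8 is left out. Bub1 has no point and Melk has a point only with all livers.

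GFP 7 and arcA 8 stood apart across nearly the whole group. GFP 7 was the highest GFP liver for 24 of 24 mitosis and 15 of 16 replication members, with Tk1 as the exception. The liver labelled arcA 8 was the highest arcA liver for 24 of 24 mitosis and 15 of 16 replication members, with Ccnd1 as the exception. Over all genes tested, GFP 7 was the highest GFP liver for 16.8% and arcA 8 the highest arcA liver for 18.7%. Levels of mitosis members in GFP 7 were a median of 3.16 times those of the median of the other 7 GFP livers (range 1.78 to 6.44). In arcA 8 they were 10.2 times those of the other 7 arcA livers (range 3.19 to 17.3). For replication members the corresponding medians were 2.04 times in GFP 7 and 1.93 times in arcA 8. Between the 7 other livers of each group, the median level was lower in arcA for 23 of 24 mitosis members, at a median ratio of 0.459, and for 10 of 16 replication members, at 0.917.

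Per kilobase of exon, the replication members had a median level of 1.56 CPM and the mitosis members one of 0.344 CPM over GFP livers. Pcna had 8.21 CPM per kilobase by the same measure, Ccnd1 5.53, Tk1 3.19 and E2f1 2.46. Among mitosis members Cdc20 was highest at 1.83 and Bub1 lowest at 0.0374 CPM per kilobase. Mitosis members rested on 103 to 2566 counts in the GFP livers together and 95 to 1873 in the arcA livers together, and counting error is largest for the weakest of them.

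Other genes of the cycle were taken from lists of names. Of 36 further replication genes, 34 were tested and 0 were called by edgeR, DESeq2 or limma voom, 1 with an unadjusted p below 0.05 by edgeR, at a median of -0.061. The 4 with the smallest p, Rfc5, Prim1, Orc2 and Chaf1b, stood at 0.22, -0.42, -0.19 and -0.42. Without arcA 8, 3 of the list were called lower, against 7.18% of all genes, among them Uhrf1, which maintains DNA methylation, at -1.86 (adjusted p = 0.033), and the histone chaperone gene Chaf1b at -0.77 (adjusted p = 0.041). Uhrf1 was also called lower without GFP 7 and arcA 8, at -1.22 (adjusted p = 0.026). Of 48 further G2 and mitosis genes, 43 were tested, at a median of -0.35. EdgeR called 1 lower with all livers, the kinetochore gene Spc24, against 6.57% of all genes. DESeq2 called 15 of the 43 lower, against 8.67% of all genes, and limma voom 8, against 7.76%. Spc24 had 21.5, 23.2 and 46.2 CPM in GFP and 13.8, 16.7 and 20.7 CPM in arcA livers and fell by 0.65 (SE 0.143, adjusted p = 0.0076). Its groups did not overlap, and arcA 8 was not its highest arcA liver. In the fit without arcA 8, 25 of these 43 were lower, against 7.18% of all genes, and without GFP 7 and arcA 8 it was 19 of 42, against 5.65%. Foxm1, the transcription factor of mitotic genes, had -0.59 (adjusted p = 0.482) with all livers, -1.29 (adjusted p = 0.010) without arcA 8 and -1.0 (adjusted p = 0.013) without GFP 7 and arcA 8. Hmgb2, Cenpa and Cdca8, at -0.57, -0.55 and -0.55 with all livers, were not called by edgeR there but were called lower in both of those fits. Mybl2, a partner of the MuvB complex, was at 0 to 0.326 CPM and not tested.

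Of 16 G1 cyclins, kinases and E2F factors, 15 were tested, 2 were lower and 1 was higher, beside 6.57% and 4.26% of all genes. Myc, a growth-induced transcription factor, had 1.44, 3.25 and 7.16 CPM in GFP and 0.923, 1.49 and 2.44 CPM in arcA livers and fell by 1.17 (SE 0.287, edgeR adjusted p = 0.0141), with all 8 arcA livers below the GFP median. Cdk6, a partner kinase of the D cyclins, fell by 0.27 (adjusted p = 0.0215), a call lost without GFP 2, 3 and 5 (adjusted p = 0.0955). Ccnd3, cyclin D3, rose by 0.21 (SE 0.0525, adjusted p = 0.0131), a call lost with scaling on library size alone, with scaling on hepatocyte markers, without GFP 2, 3 and 5, and without GFP 7 and arcA 8. Cdk2 had a log2 fold change of 0.33 (adjusted p = 0.109) and Cdk4, the main partner of cyclin D1, one of -0.0026 (SE 0.0582, adjusted p = 0.984).

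Of 23 listed inhibitors of division, 21 were tested, 2 were lower and 1 was higher, beside 6.57% and 4.26% of all genes. Cdkn1a, the p21 inhibitor of cyclin-dependent kinases, had 10.8, 14.4 and 26.4 CPM in GFP and 7.64, 9.05 and 12.2 CPM in arcA livers and fell by 0.74 (SE 0.165, edgeR adjusted p = 0.0087). Gadd45b, a stress-induced gene, fell by 1.22 (SE 0.249, adjusted p = 0.0035). Btg1, an antiproliferative gene, rose by 0.29 (adjusted p = 0.0096), a call lost with scaling on hepatocyte markers (adjusted p = 0.477). Btg2 stood at -0.43 (adjusted p = 0.156). For Cdkn1b, the p27 inhibitor, the log2 fold change was 0.055 (adjusted p = 0.582), and for Cdkn1c, the p57 inhibitor, 0.32 (adjusted p = 0.239). Cdkn1b turned to -0.15 with scaling on hepatocyte markers.

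Among 23 growth signals and receptors of hepatocytes, 19 were tested and 6 were lower, beside 6.57% of all genes, and 3 without GFP 7 or without arcA 4. The receptor gene Tgfbr2 fell by 0.53 (SE 0.108, edgeR adjusted p = 0.0042) and its ligand gene Tgfb1 by 0.61 (SE 0.141, adjusted p = 0.0078), both of the TGF-beta pathway that restrains hepatocyte division. Hgf, the hepatocyte growth factor gene, had 2.59, 3.0 and 5.04 CPM in GFP and 1.58, 2.02 and 2.72 CPM in arcA livers and fell by 0.61 (SE 0.149, adjusted p = 0.0122). Hgf also stood in the list of stellate cell markers, of which 8 of 10 were lower, beside 6.57% of all genes. Wwtr1, which encodes TAZ of the Hippo pathway, fell by 0.24 (adjusted p = 0.0264), a call lost with scaling on library size alone, without GFP 2, 3 and 5, without GFP 7 and without arcA 4. Tgfa and Tgfbr1 fell by 0.24 and 0.19.

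Markers of other cell types differed between the groups, and their part in the results on cell division was not tested. With all livers, edgeR called 6.57% of all genes lower and 4.26% higher. All 12 tested of 15 T and NK cell markers were lower. Their summed levels were 21.3 to 46.2 CPM in GFP and 1.83 to 7.09 CPM in arcA livers. All 5 tested of 8 B and plasma cell markers were lower, with 52.2 to 302.8 CPM in GFP and 1.68 to 2.82 CPM in arcA livers. Of 15 macrophage markers 9 were lower, and 3 without GFP 7 and arcA 8, where 5.65% of all genes were lower. The macrophage sums were 264 to 400.2 CPM in GFP and 122 to 355 CPM in arcA livers. Of 16 hepatocyte markers 3 were higher, and of 10 endothelial markers 1 was lower. Of 6 bile duct and 9 erythroid and granulocyte markers, 5 of each were tested and 0 were called by edgeR, DESeq2 or limma voom, none with an unadjusted p below 0.05 by edgeR.

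The 2 livers with high mitosis levels differed in these markers. The 24 mitosis members summed to 134 CPM in GFP 7 against 31.0 to 55.2 CPM in the other GFP livers, and to 181.3 CPM in arcA 8 against 14.3 to 28.9 CPM in the other arcA livers. GFP 7 had the highest B and plasma cell sum (302.8 CPM) and the highest macrophage sum (400.2 CPM) of the GFP livers. In arcA 8 the T and NK cell sum was 2.21 CPM, with 3 of 15 markers at 0, and the B and plasma cell sum was 1.86 CPM, so that the liver with the highest mitosis sum had the low lymphocyte levels of the other arcA livers. Its macrophage sum of 230.7 CPM was 1.37 times the median of the other arcA livers and lay below that of arcA 3 only. Both livers had the lowest hepatocyte marker sum of their group, 87970 CPM in GFP 7 and 94300 CPM in arcA 8. The bile duct sum of arcA 8 was 47.1 CPM against 17.6 to 26.9 CPM in the other arcA livers, and its sum of growth signals was 617.6 CPM against 427 to 479 CPM. Spp1 stood in both the macrophage and the bile duct list, so those sums are not independent.

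**Figure D4:**
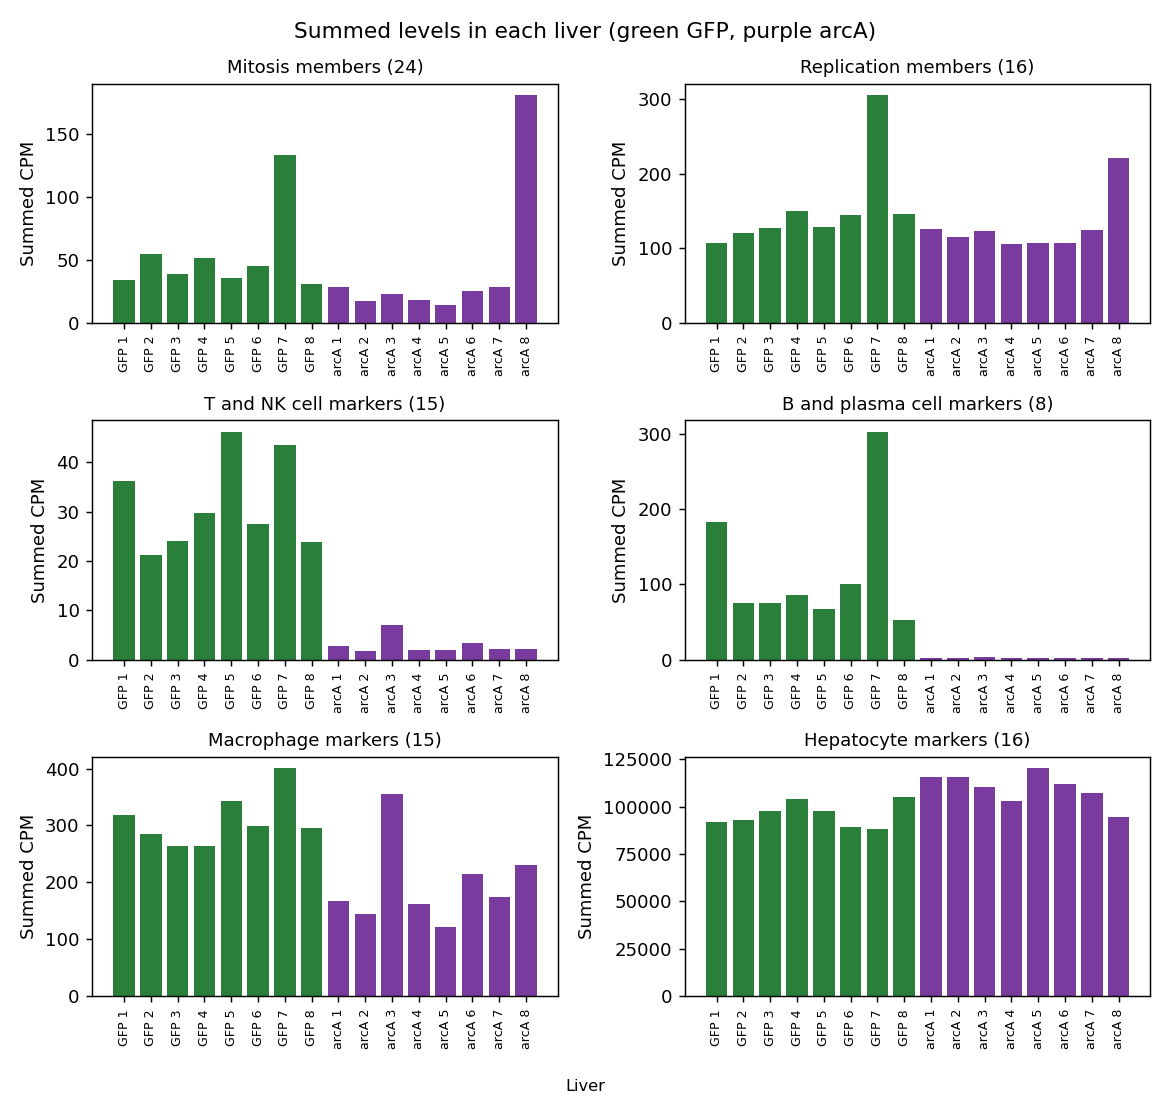
Summed levels, in CPM, of the mitosis members, the replication members and the markers of T and NK cells, B and plasma cells, macrophages and hepatocytes in each liver, with GFP in green and arcA in purple. Mitosis sums peak in GFP 7 and arcA 8, whereas the T and NK cell and B and plasma cell sums are low in every arcA liver including arcA 8.

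Whether reads of genes on opposite strands were told apart is not known, because no source used here gives the strand setting of the counting. Apart from Ccnd1, opposite-strand exons covered 29.3% of the exon bases of Kif20a (Cdc23), 17.4% of Ccne2 (Ints8), 12.5% of Ccna2 (Exosc9) and 11.1% of Prc1 (Rccd1), and no single opposite-strand gene covered more than 7.25% of any other member. Median CPM in GFP and arcA livers was 8.35 and 7.85 for Cdc23, 9.17 and 11.1 for Ints8, 10.0 and 10.3 for Exosc9, and 1.51 and 1.51 for Rccd1. Ints8 was called higher, at 0.32 (edgeR adjusted p = 0.0052), and Cdc23, Exosc9 and Rccd1 were not called. Whether their reads added to the member counts was not tested. Ccnb1, Ccnb2, Pcna and Tyms have annotated processed copies to which reads could be split. The copies Ccnb1-ps and Pcna-ps1 had 0 counts in every liver. Ccnb2-ps had 109 counts in all GFP and 122 in all arcA livers, and Pcna-ps2 had 530 and 513. Counts of the Tyms copy are not given here.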

How the data were processed

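Liver RNA libraries of 8 GFP and 8 arcA mice were grouped by their labels, 1 library per liver. The authors deposited unnormalized counts, 1 value per symbol and library. The submitters' processing notes name featureCounts 1.4.6-p5, Subread, STAR 2.5.1a, bcl2fastq and the build GRCm38. Per the labels' protocols, Trizol RNA and oligo-dT were used. No source used here gives the annotation release, the strand setting or the way read mates were counted. Among counts from 1 to 20, 68.1% to 71.4% per library were even.

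Of 40757 lines, 348 exact copies were removed, and 85 repeated symbols with 1827 counts were summed, which left 40324 symbols, 40247 of them in GENCODE M21. Groups were compared in edgeR 4.0.16 under R 4.3.3 by its quasi-likelihood test (TMM scaling, robust fit, no covariates) over the 14476 genes passing filterByExpr, with Benjamini-Hochberg adjustment over all of them and a threshold of 0.05. The SE is the size of the log2 fold change divided by the root of F, and intervals are 95%. CPM used TMM-scaled library sizes.

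The 40 members and all lists were chosen with earlier results of these data known. Levels in every group are given for members called with all livers and for 20 members whatever their p; from other lists up to 4 genes with the smallest p were named, and Cdkn1a, Cdkn1b, Cdkn1c, Foxm1, Mybl2, Myc, Cdk4 and Cdk2. Tgfa, Tgfbr1, Uhrf1 and members outside the 20 given with values were named after their values were seen. Alternatives were DESeq2 1.42.0, voom of limma 3.58.1 with quality weights, scaling by upper quartile, RLE, hepatocyte markers or library size alone, a minimum of 1 CPM in 8 libraries, genes unfiltered, a replicate block, halved counts, and livers left out singly, as GFP 2, 3 and 5, and as arcA 3 and 8. The fit without GFP 7 and arcA 8 was added after the values were seen. The edgeR step was tested on simulated counts for 14330 genes of the arcA and GFP comparison. It called 56 of 67 genes changed 1.5-fold, 61 of 67 changed 2-fold, 66 of 66 changed 4-fold and 9 of 14130 unchanged genes. The changed genes had a mean above 1 CPM, so weak mitosis genes are not covered. Counts were drawn for each gene on its own, so a liver high across many genes, as GFP 7 and arcA 8 were, is not covered either. Counts carry no molecular identifiers. 1 further gene of the replication list is not reported here.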

Additional observations from a re-analysis of the deposited data

Results flagged for a closer look

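In groups of 8 livers, Dixon's test marked a level whose gap to the nearest liver took an unusually large part of the group's range. Chance alone does this in about 5% of groups of normally distributed values, a condition not tested here. Of the 20 members given in full, 13 were marked in GFP 7 and 16 in arcA 8. Most members had GFP 7 and arcA 8 as the highest livers, so their marks are not independent of each other. No other liver was marked.

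GFP 7 stood apart from the other GFP livers for Ccnd1 (106 CPM), Mcm6 (20.3 CPM), Mki67 (18.8 CPM), Mcm2 (16.7 CPM), Rrm2 (13.3 CPM) and Tyms (12.3 CPM). It also did so for Cdc20 (11 CPM), Top2a (10.4 CPM), Cdk1 (9.68 CPM), Birc5 (6.61 CPM), Ccna2 (5.02 CPM), Ccnb1 (4.47 CPM) and Aurkb (3.85 CPM). Its summed level was 306 CPM over the replication members and 134 CPM over the mitosis members.

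The liver labelled arcA 8 stood apart from the other arcA livers for Tk1 (31.4 CPM), Mki67 (26.4 CPM), Mcm6 (23.7 CPM), Cdc20 (17 CPM), Mcm2 (14.3 CPM), Rrm2 (13 CPM), Top2a (11.9 CPM) and Cdk1 (10.3 CPM). The same held for Ccna2 (7.55 CPM), Birc5 (6.98 CPM), Plk1 (6.38 CPM), Ccnb1 (6.16 CPM), Aurkb (4.09 CPM), Ccne2 (3.7 CPM), Ccne1 (2.77 CPM) and Bub1 (2.01 CPM). Its summed level was 221 CPM over the replication members and 181 CPM over the mitosis members. Ccnd1 was not marked in arcA 8.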

How the results depend on the processing

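The call of Ccnd1 held in every alternative, and its log2 fold change lay between -2.67 and -2.06 over the 16 fits without 1 liver. With all 16 livers, the number of members called lower was 1 with edgeR, 17 with DESeq2 and 5 with limma voom. The shares of all genes called lower there were 6.57%, 8.67% and 7.76%. By edgeR the number was 17 without GFP 7 and arcA 8, beside 5.65% of all genes. It was 16 without arcA 3 and 8, where 1100 genes in all were lower. Over the fits without 1 liver it ran from 1 to 19, with 19 only without arcA 8, where 7.18% of all genes were lower. The mitosis median ran from -1.39 to -0.011 over the same fits, nearest 0 without GFP 7. No clear pairing by the replicate numbers of the labels was seen. Correlations of deviations were -0.049 to 0.16, and 2 of 8 GFP livers correlated best with their own number. These values cannot exclude a weak pairing. With a replicate block, 1 member was lower, Ccnd1 at -2.36, the mitosis median was -0.90, and 592 genes were higher and 876 lower. Over all genes, 617 were higher and 951 lower, and the higher count was 407 with the 1 CPM filter, 369 without GFP 2, 3 and 5, 346 without GFP 7 and arcA 8, and 389 to 638 over the fits without 1 liver, lowest without GFP 2. Scaling on library size alone gave 253 higher and 800 lower (24% rises against 39.3%), and scaling on hepatocyte markers 53 and 2594 (2% rises), with the median of all genes at -0.20. Uncalled genes near 0 changed sign, and the cause was not tested. Ccne2 stood at -0.0030 (1 CPM filter), -0.22 (hepatocyte markers), -0.016 (library size), -0.23 (limma voom), -0.067 (replicate block), -0.00042 (upper quartile), -0.066 (without GFP 2, 3 and 5), -0.19 (without GFP 7 and arcA 8) and -0.29 (without arcA 3 and 8), and at -0.30 to 0.14 over the fits without 1 liver. In the same order, with halved counts (-0.0081) first, E2f1 stood at -0.011, -0.21, -0.019, -0.010, -0.0060, -0.0071, -0.070, -0.035 and -0.11, and at -0.093 to 0.083 without 1 liver. With hepatocyte markers, without GFP 2, 3 and 5, and without arcA 3 and 8, Pcna stood at -0.17, -0.041 and -0.019, Mcm2 at -0.15, -0.10 and -0.11, and Mcm6 at -0.15, -0.068 and -0.31. Without 1 liver they ran from -0.019 to 0.14, -0.042 to 0.36 and -0.23 to 0.42. Cdkn1b was -0.15 with hepatocyte markers. Cdk4 was 0.015 with limma voom, 0.029 without GFP 7 and arcA 8, 0.022 without arcA 3 and 8, and -0.041 to 0.021 without 1 liver. Without GFP 7, positive values replaced negative ones for Ccna2 (range without 1 liver -1.37 to 0.0057), Rrm2 (-0.92 to 0.061), Tyms (-0.21 to 0.0077), Aurkb (-1.54 to 0.24) and Cdc20 (-1.39 to 0.17). Depth limits Bub1, Melk, Cdc6 and Kif23 most, with the fewest counts.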
